A study of Homo sapiens with 12 samples.

Results

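The 42 genes described here encode enzymes, membrane proteins and the proton pump of the lysosome. They were taken by name from a table of 16172 genes, and the list was drawn up with earlier results of these data known. The list holds 19 hydrolases, 8 membrane and transport proteins, and 15 subunits of the vacuolar H+-ATPase (V-ATPase), of which 8 belong to the V1 part, 5 to the V0 part and 2 are accessory. All 42 had a row in the table and all passed the filter on low values, as did 10605 genes in all.

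The lysosome is the acidic compartment in which cells break down proteins, lipids, glycans and whole organelles. Its soluble hydrolases are made at the endoplasmic reticulum and sorted to lysosomes, where an acidic lumen keeps most of them active. The V-ATPase supplies that acid: its V1 part, on the cytosolic side, splits ATP, and its V0 part, in the membrane, carries protons inward. Many genes of both kinds are known targets of the factors TFEB and TFE3, which bind a palindromic DNA motif with the core CACGTG.

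The measurements came from human lung cancer cells (the non-small-cell line H1299) transfected with siEIF3Gs, an equal mix of 2 siRNAs against EIF3G, or with siCtrl, a control siRNA. EIF3G is a subunit of eIF3, a complex that acts when ribosomes begin translation. Cells were lysed after 72 h, 10% of the lysate was kept as input, and the polysomal fraction, which holds mRNAs carrying several ribosomes, was collected from a sucrose gradient of 10% to 50%. The 4 groups of 3 libraries are siEIF3G polysomal, siEIF3G input, siCtrl polysomal and siCtrl input, all from this 1 cell line. Whether the 3 libraries of a group came from separate cultures is not stated, so the p-values reflect only how these libraries vary, and that variation may be technical.

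Values are TPM, transcripts per 1000000 transcripts, a share of each library corrected for gene length. The number of reads behind them is unknown, because every library sums to the same total. EIF3G itself had 69.2 to 143 TPM in siEIF3G polysomal and 47.3 to 84.7 TPM in siEIF3G input libraries, against 1680 to 1916 TPM in siCtrl polysomal and 878 to 1158 TPM in siCtrl input libraries. KRT8, KRT18 and VIM, expected in this line, had 108 to 429, 435 to 1934 and 265 to 3105 TPM over the 12 libraries. The list of epithelial or mesenchymal markers they came from also held EPCAM, at most 0.44 TPM, and CDH1, at most 0.04 TPM. CDH2 and ZEB1, also on it, had 0.15 to 6.83 and 0.32 to 8.92 TPM. Of the markers of other cell types, SFTPB, CD14, LYZ, PECAM1, VWF, COL1A1 and DCN were at most 0.41 TPM, NKX2-1 at most 0.31 and NAPSA at most 0.70 TPM, whereas the leukocyte marker CD68, which is also a lysosomal membrane protein, had 59.0 to 132 TPM. In 3 libraries, siEIF3G polysomal 3, siEIF3G input 2 and siCtrl input 1, the mean correlation across genes was higher with the other fraction of the same siRNA (0.953, 0.958 and 0.957) than with their own group (0.949, 0.929 and 0.922), and calls and medians by role are given with and without them.

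RefSeq promoter windows, 250 bases before to 50 bases after the start (build GRCh38.p14), were found for 29 of the 42 genes. The core CACGTG, which reads the same on both strands, stood in 10 of these 29 windows (34.5%) and in 13.4% of the windows of 8722 tested genes. The longer palindrome TCACGTGA, which contains the core, stood in 6 of 29 (20.7%) and in 2.49% of the same 8722. The core was found in 4 of 13 hydrolase windows, 3 of 6 membrane and transport windows and 3 of 10 pump windows. The members that hold it are CTSA, CTSD, GAA, NEU1, CD63, LAMP1, MCOLN1, ATP6V0B, ATP6V0D1 and ATP6V1G1. A match describes letters, not binding. Stretches are shown as examples for 7 of the 10 genes with the core, and not for CTSA, NEU1 and LAMP1. The windows of GAA, MCOLN1 and ATP6V0B also hold the core at a further position that is not shown. The 7 stretches below, each of 30 bases, run 5′ to 3′ on the gene's own strand with the core in capitals. They lie upstream of the start on chr12:55729172-55729201 (minus strand, CD63), chr16:67481199-67481228 (minus, ATP6V0D1), chr11:1763957-1763986 (minus, CTSD), chr17:80101493-80101522 (plus, GAA), chr19:7522571-7522600 (plus, MCOLN1), chr9:114587699-114587728 (plus, ATP6V1G1) and chr1:43974891-43974920 (plus, ATP6V0B).
CD63: ccgggtaggggcCACGTGgccctggccggg
ATP6V0D1: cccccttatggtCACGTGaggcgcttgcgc
CTSD: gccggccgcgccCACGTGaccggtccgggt
GAA: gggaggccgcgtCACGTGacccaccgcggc
MCOLN1: accagaggcggtCACGTGaggggctctggg
ATP6V1G1: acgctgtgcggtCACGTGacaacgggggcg
ATP6V0B: ccggcgtggggtCACGTGgtaccggcgcat
The core is followed by A and preceded by T in the ATP6V0D1, GAA, MCOLN1 and ATP6V1G1 stretches, which makes the longer palindrome, but not in those of CD63, CTSD and ATP6V0B.

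Together the 42 genes took between 0.427% and 0.783% of a library. The shares were 0.662% to 0.740% in siEIF3G polysomal libraries against 0.427% to 0.574% in siEIF3G input libraries, which did not overlap. They were 0.686% to 0.783% in siCtrl polysomal libraries against 0.518% to 0.738% in siCtrl input libraries, which overlapped only through siCtrl input 1. In bulk lysates, fewer cells with a transcript and less of it per cell cannot be told apart.

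Pump subunits spanned a wider range of levels than hydrolases. In siCtrl input RNA the most abundant member was ATP6V0B, a proton-carrying ring subunit of V0, at 1957 ± 1059 TPM (SD, n = 3 here and for all levels of this paragraph). ATP6V1F, a small subunit of the central V1 stalk, followed at 1394 ± 622 TPM. The catalytic subunit ATP6V1A was far lower at 19.9 ± 13.4 TPM, and the large V0 subunit ATP6V0A1 lower still at 8.80 ± 3.34 TPM. The SDs of ATP6V0B and ATP6V1F came mostly from siCtrl input 1, where they had 3169 and 2091 TPM, and the levels of the pair cannot be ordered beyond that spread. CD63, a tetraspanin of late endosome and lysosome membranes, had 767 ± 44.0 TPM, and NPC2, the soluble cholesterol carrier of the lumen, 182 ± 52.5 TPM. The most abundant hydrolases were the aspartic protease CTSD at 158 ± 24.0 TPM and CTSA, a serine carboxypeptidase that also protects NEU1, at 115 ± 26.2 TPM, and their ranges did not overlap. The least abundant member was the beta-mannosidase MANBA at 3.15 ± 2.24 TPM. Neighbours in the order of levels lay within the larger of their SDs, except ATP6V1F above CD63, CD63 above ATP6V0C (245 ± 28.5 TPM), ATP6V0C above NPC2, MCOLN1 (29.4 ± 2.64 TPM) above NEU1 (22.4 ± 6.11 TPM), and ATP6V0A1 above MANBA. Judged by name, pseudogenes are annotated for GUSB, ATP6V1G1, CTSL, ATP6V0C, ATP6V0E1, ATP6V1E1, LAMP1 and ATP6V1F. Their likeness in sequence was not measured. How reads were split with them is not given in the sources used here, so the levels of these members are uncertain.

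Polysomal was first set against input RNA within siCtrl cells, which asks which lysosomal mRNAs took a larger or smaller share of the transcripts on polysomes. On the deposited scale most tested genes were lower in this comparison. The median log2 difference of the 10605 tested genes was -0.96 (polysomal minus input, on log2(TPM + 1), here and throughout), and 28.8% of them lay above 0. Of the 42 members, 7 were higher and 8 lower by limma's moderated test with Benjamini-Hochberg adjustment over all tested genes at 0.05. That is 16.7% higher, against 7.98% of all tested genes, and 19% lower, against 28.9%. The higher ones were the hydrolases CTSD, HEXA and NEU1, the membrane proteins CD63 and MCOLN1, and the pump subunits ATP6V0D1 and ATP6AP1. The lower ones were the hydrolases CTSC and MANBA, the membrane proteins LAMP2 and NPC1, and the pump subunits ATP6V1A, ATP6V1G1, ATP6V1H and ATP6AP2. With median-of-ratios size factors the same comparison called 17 members higher and 2 lower (2835 and 1723 of all genes, against 846 and 3066 on the deposited scale). With quantile normalization it called 10 higher and 4 lower (1657 and 1243 of all genes). None of the 15 genes changed sign under either scaling, but the calls were not all kept. With size factors 9 of the 15 calls remained, without those of CTSC, MANBA, LAMP2, ATP6V1G1, ATP6V1H and ATP6AP2. With quantile normalization 10 remained, without those of CTSC, MANBA, LAMP2, NPC1 and ATP6AP2.

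CD63 had 2220, 2372 and 2138 TPM in siCtrl polysomal libraries against 788, 796 and 716 TPM in siCtrl input libraries. Every polysomal library lay far above every input library, and the log2 difference was 1.55 (SE 0.21, limma adjusted p = 0.00177). ATP6V0D1, the V0 subunit that joins the membrane ring to the stalk, had 401, 326 and 257 TPM in siCtrl polysomal against 102, 120 and 96.0 TPM in siCtrl input libraries. Its groups were also well apart, with a log2 difference of 1.60 (SE 0.28, limma adjusted p = 0.00733). CTSD had 440, 397 and 275 TPM in siCtrl polysomal against 183, 157 and 135 TPM in siCtrl input libraries. The lowest polysomal value lay above the highest input value, and the log2 difference was 1.20 (SE 0.27, limma adjusted p = 0.0186). Among the other genes that were higher, HEXA encodes the alpha subunit of the ganglioside-degrading beta-hexosaminidase A, and had 54.3, 36.4 and 25.9 TPM in siCtrl polysomal against 14.8, 20.1 and 18.6 TPM in siCtrl input libraries. NEU1, the lysosomal sialidase, had 42.2, 43.2 and 41.9 TPM in siCtrl polysomal against 15.3, 25.6 and 26.2 TPM in siCtrl input libraries. MCOLN1, a calcium channel of the lysosomal membrane, had 73.7, 64.0 and 53.2 TPM in siCtrl polysomal against 27.8, 32.5 and 28.1 TPM in siCtrl input libraries. In all 3 genes the groups did not overlap, with log2 differences of 1.03 for HEXA, 0.93 for NEU1 and 1.08 for MCOLN1 (limma adjusted p = 0.0435, 0.0490 and 0.0285). ATP6AP1, an accessory subunit needed for pump assembly, had 181, 129 and 86.3 TPM in siCtrl polysomal against 35.7, 50.6 and 48.1 TPM in siCtrl input libraries, again without overlap, with a log2 difference of 1.49 (SE 0.40, limma adjusted p = 0.0303).

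The 8 members that were lower had low levels on polysomes, and for each of them siCtrl input 1 was the input library nearest to the polysomal ones. ATP6V1A, which holds the ATP-splitting site of the pump, had 3.29, 3.33 and 1.5 TPM in siCtrl polysomal against 5.28, 22.7 and 31.6 TPM in siCtrl input libraries. The groups did not overlap, but siCtrl input 1 lay close to the polysomal values, and the log2 difference was -2.24 (SE 0.61, limma adjusted p = 0.0313). ATP6V1G1, a subunit of the peripheral stalk, had 14.0, 16.0 and 15.9 TPM in siCtrl polysomal against 27.1, 70.3 and 94.9 TPM in siCtrl input libraries, without overlap, and a log2 difference of -1.82 (limma adjusted p = 0.0274). ATP6V1H, a regulatory V1 subunit, had 11.3, 7.41 and 3.09 TPM in siCtrl polysomal against 11.1, 38.6 and 51.2 TPM in siCtrl input libraries, and siCtrl polysomal 1 overlapped siCtrl input 1. Its log2 difference was -1.96 (limma adjusted p = 0.0377). LAMP2, a major glycoprotein of the lysosomal membrane, had 3.54, 3.09 and 0.95 TPM in siCtrl polysomal against 4.05, 12.1 and 18.5 TPM in siCtrl input libraries. NPC1, the membrane cholesterol exporter, had 1.91, 1.42 and 0.73 TPM in siCtrl polysomal against 2.79, 10.0 and 15.8 TPM in siCtrl input libraries. Both pairs of groups were apart only narrowly, through siCtrl input 1, with log2 differences of -1.72 for LAMP2 and -1.95 for NPC1 (limma adjusted p = 0.0414 and 0.0382). ATP6AP2, the second accessory subunit, also called the prorenin receptor, had 10.2, 11.0 and 4.45 TPM in siCtrl polysomal against 11.4, 30.6 and 46.8 TPM in siCtrl input libraries. Its groups were apart by a narrow margin, with a log2 difference of -1.56 (limma adjusted p = 0.0446). CTSC, a protease that activates other proteases, had 14.8, 11.99 and 7.12 TPM in siCtrl polysomal against 12.98, 36.3 and 47.0 TPM in siCtrl input libraries. MANBA had 0.46, 0.62 and 0.30 TPM in siCtrl polysomal against 0.57, 4.30 and 4.59 TPM in siCtrl input libraries. In both genes the groups overlapped through siCtrl input 1, with log2 differences of -1.30 for CTSC and -1.31 for MANBA (limma adjusted p = 0.0459 and 0.0489).

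The calls in siCtrl cells depended on single libraries. Without siCtrl input 1 the same test called 25 members, among 7185 of all genes (3912 with the 12 libraries). Without siCtrl input 2, siCtrl input 3, siCtrl polysomal 1 or siCtrl polysomal 2 it called 2 members, among 145, 175, 227 and 130 of all genes. Without siCtrl polysomal 3 it called 3 members, among 273. The members' count thus moved together with the count over all genes. Leaving out siEIF3G libraries, which share the estimate of spread, gave 7 members without siEIF3G polysomal 1 or 2 (1097 and 1545 of all genes) and 9 without siEIF3G input 3 (2408). It gave 10 without siEIF3G input 1 (2878), 14 without siEIF3G polysomal 3 (3511) and 20 without siEIF3G input 2 (5775). CD63 and ATP6V0D1 passed the test in each of the 23 alternatives run, which no other called member did. Without all 3 libraries that stood apart, 30 members were called, 11 higher and 19 lower, among 7960 of all genes. All 15 calls made with the 12 libraries were among these 30, in the same direction. The 3 libraries were picked because they resembled the other fraction, so leaving them out favours larger differences between fractions in both kinds of cells. The keeping of the 15 calls is therefore not an independent check.

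The other 27 members did not pass the test in siCtrl cells, nor did any of them in siEIF3G cells, and their log2 differences, polysomal minus input, are given as values. Among proteases, the cysteine protease CTSB had 0.42 in siEIF3G cells and 0.53 in siCtrl cells. The related CTSZ had 0.85 in siEIF3G cells and 0.99 in siCtrl cells, and CTSL 0.73 in siEIF3G cells and -0.06 in siCtrl cells. CTSA had 0.58 in siEIF3G cells and 0.68 in siCtrl cells. Its levels were 211, 303 and 118 TPM in siEIF3G polysomal against 111, 142 and 142 TPM in siEIF3G input libraries, and 321, 159 and 117 TPM in siCtrl polysomal against 85.0, 128 and 132 TPM in siCtrl input libraries. Its fractions overlapped in both kinds of cells through polysomal library 3. The tripeptidyl peptidase TPP1 had -0.36 in siEIF3G cells and -1.16 in siCtrl cells. Among enzymes that remove sugars or sulfate, values in siEIF3G cells ran from -0.75 for MANBA to 1.08 for HEXA, with 1.00 for GAA, 0.71 for SGSH, 0.64 for NAGLU, 0.55 for GLA, 0.54 for NEU1, 0.34 for GLB1 and 0.21 for GUSB. In siCtrl cells GAA had 0.74, SGSH 0.90, NAGLU 0.42, GLA 0.04, GLB1 -0.26 and GUSB -0.19, and the negative values of GLB1, GUSB and CTSL were above 0 under both other scalings. LIPA, an acid lipase, had -0.13 in siEIF3G cells and -1.47 in siCtrl cells, ASAH1, the acid ceramidase, -0.19 in siEIF3G cells and -1.40 in siCtrl cells, and PPT1, a depalmitoylating enzyme, -0.18 in siEIF3G cells and -0.84 in siCtrl cells. With size factors LIPA, ASAH1, PPT1 and TPP1 lay above 0 in siEIF3G cells, and PPT1 also in siCtrl cells.

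Among membrane and transport proteins, LAMP1, a heavily glycosylated membrane protein, had 0.60 in siEIF3G cells and 0.06 in siCtrl cells, and NPC2 0.48 in siEIF3G cells and 0.62 in siCtrl cells. NPC2 had 267, 255 and 209 TPM in siEIF3G polysomal against 149, 154 and 231 TPM in siEIF3G input libraries, and 271, 256 and 289 TPM in siCtrl polysomal against 124, 198 and 225 TPM in siCtrl input libraries. Its fractions overlapped in siEIF3G cells and did not in siCtrl cells. PSAP had 1.28 in siEIF3G cells and 0.55 in siCtrl cells, and SCARB2, the receptor that carries beta-glucocerebrosidase to lysosomes, -0.70 in siEIF3G cells and -1.76 in siCtrl cells. The 5 V1 subunits that did not pass were all below 0 on the deposited scale. In siEIF3G cells ATP6V1B2 had -0.03, ATP6V1D -0.15, ATP6V1E1 -0.28, ATP6V1F -0.49 and ATP6V1C1 -0.66, and in siCtrl cells ATP6V1F had -0.58, ATP6V1E1 -0.74, ATP6V1B2 -0.97, ATP6V1D -1.02 and ATP6V1C1 -1.61. Of the 4 such V0 subunits, in siEIF3G cells ATP6V0B had 0.34, ATP6V0C -0.03, ATP6V0A1 -0.34 and ATP6V0E1 -0.41, and in siCtrl cells ATP6V0C had 0.65, ATP6V0B -0.21, ATP6V0E1 -0.40 and ATP6V0A1 -0.78. In siCtrl cells 5 of 5 V0 and 4 of 8 V1 subunits lay above 0 with size factors, and 3 of 5 V0 and 0 of 8 V1 subunits with quantile normalization.

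**Figure D1:**
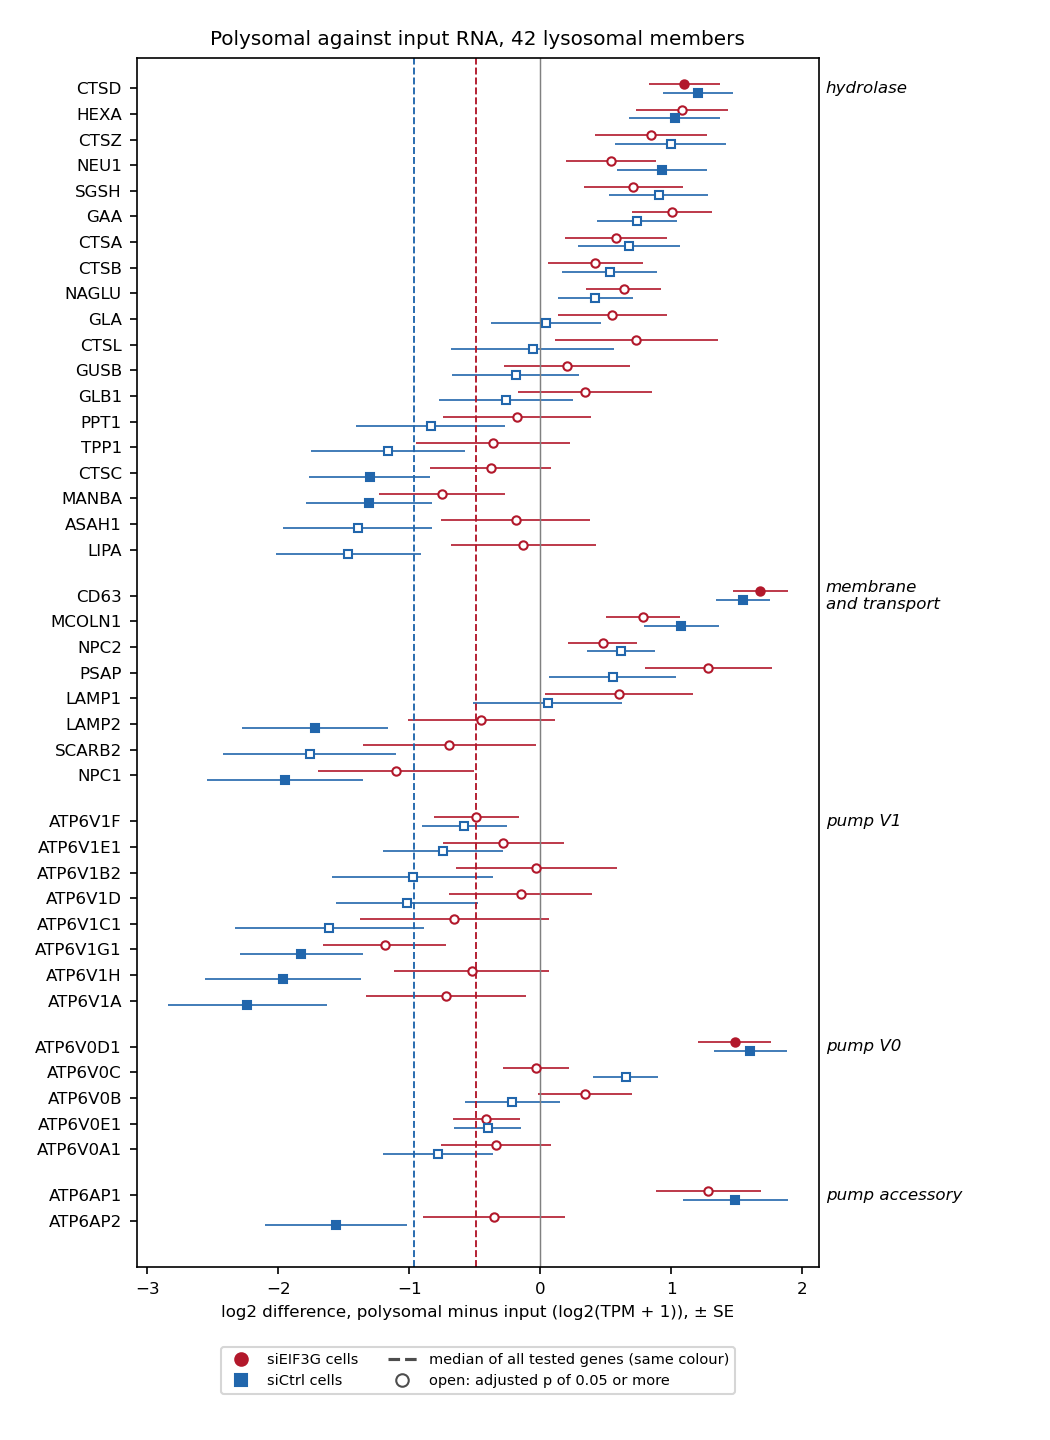
Log2 difference of polysomal minus input RNA (x axis, log2(TPM + 1), bars are ± SE, n = 3 libraries per group) for the 42 members by role (y axis), in siEIF3G cells (red circles, upper) and siCtrl cells (blue squares, lower). Filled points passed an adjusted p of 0.05 and dashed lines mark the median of all tested genes, -0.49 in siEIF3G cells and -0.96 in siCtrl cells. CD63, ATP6V0D1 and CTSD are filled in both, and all 8 V1 subunits lie below 0 in both (with size factors, 3 in siEIF3G and 4 in siCtrl cells). Of all tested genes, 30.2% lie above 0 in siEIF3G cells and 28.8% in siCtrl cells.

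In siCtrl cells the hydrolases of this list had a higher median polysomal-to-input difference than its pump subunits. The 19 hydrolases had a median log2 difference of 0.04, which is 1.008 above the median of all tested genes, and 14 of 19 lay above that median. The 15 pump subunits had a median of -0.78, which is 0.18 above it, with 8 of 15 above. Within the pump, the 8 V1 subunits had a median of -1.31, which is -0.35 relative to all genes, and all 8 lay below 0 (4 of 8 with size factors), while the 5 V0 subunits had a median of -0.21, 0.75 above it, with 5 of 5 above. The 8 membrane and transport proteins had a median of 0.30 but spread from -1.95 for NPC1 to 1.55 for CD63. Relative to all genes, the hydrolase median was also above under both other scalings (1.22 with size factors, 0.64 with quantile normalization) and without the 3 libraries apart (1.08). The pump median changed side: 0.27 with size factors, -0.62 with quantile normalization and 0.13 without the 3 libraries. V1 was below all genes under each of them, at -0.16, -0.79 and -0.61. In terms of groups that did not overlap, 12 of 42 members were higher on polysomes (28.6%, against 16.9% of all tested genes) and 5 lower (11.9%, against 28.9%). The 12 were CTSD, CTSZ, GAA, HEXA, NEU1, SGSH, CD63, MCOLN1, NPC2, ATP6V0C, ATP6V0D1 and ATP6AP1, and the 5 were LAMP2, NPC1, ATP6V1A, ATP6V1G1 and ATP6AP2.

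The same comparison in siEIF3G cells had a median log2 difference of -0.49 over all tested genes. Of the 42 members 3 were higher (7.1%, against 1.81% of all tested genes) and 0 lower (against 1.33%), while 10 had an unadjusted p under 0.05 (23.8%, against 20.5% of all tested genes). CD63 had 2214, 1995 and 1582 TPM in siEIF3G polysomal against 567, 770 and 487 TPM in siEIF3G input libraries. The groups were far apart, with a log2 difference of 1.68 (SE 0.21, limma adjusted p = 0.00136). ATP6V0D1 had 324, 380 and 207 TPM in siEIF3G polysomal against 79.7, 125 and 115 TPM in siEIF3G input libraries, also without overlap, with a log2 difference of 1.48 (SE 0.28, limma adjusted p = 0.0145). CTSD had 342, 378 and 232 TPM in siEIF3G polysomal against 149, 178 and 113 TPM in siEIF3G input libraries, without overlap, with a log2 difference of 1.10 (SE 0.27, limma adjusted p = 0.0452). These are 3 of the 7 genes that were higher on polysomes in siCtrl cells. GAA, the lysosomal glycogen-degrading alpha-glucosidase, had 43.8, 54.3 and 33.9 TPM in siEIF3G polysomal against 20.6, 23.9 and 18.9 TPM in siEIF3G input libraries. ATP6AP1 had 189, 215 and 68.6 TPM in siEIF3G polysomal against 52.9, 69.0 and 51.7 TPM in siEIF3G input libraries. GAA's groups did not overlap, those of ATP6AP1 did narrowly through siEIF3G polysomal 3, and neither gene passed the adjusted threshold (limma adjusted p = 0.0992 and 0.107). The count of 3 fell to 1, CD63, without siEIF3G polysomal 1, siEIF3G polysomal 2 or siEIF3G input 1, and was 8 without siEIF3G polysomal 3. With size factors 0 members passed, and without the 3 libraries apart 27 did, 14 higher and 13 lower, among 7541 of all genes.

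By role, the hydrolase median in siEIF3G cells was 0.54, or 1.03 above all tested genes, with 18 of 19 hydrolases above that median. The pump median was -0.34, or 0.15 above, and again changed side with quantile normalization (-0.20). V1 had a median of -0.51, which is -0.01 relative to all genes, and 8 of 8 subunits below 0 (3 of 8 with size factors). Of all tested genes only 30.2% lay above 0, and 4 of 8 V1 subunits lay above the median of all tested genes. V0 had a median of -0.03, or 0.46 above all genes. Without the 3 libraries apart the medians relative to all genes were 1.52 for hydrolases, 0.38 for the pump, -0.26 for V1 and 1.24 for V0. Groups that did not overlap numbered 10 higher (23.8%, against 9.4% of all tested genes) and 1 lower, ATP6V0E1 (2.4%, against 12.7%).

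Ratios between members of the same library do not depend on its scale factor. The mean log2 TPM of the hydrolases minus that of the pump subunits was -0.82, -0.63 and -1.43 in siEIF3G polysomal against -1.54, -1.27 and -1.57 in siEIF3G input libraries. It was -0.66, -1.14 and -1.204 in siCtrl polysomal against -1.71, -1.59 and -1.63 in siCtrl input libraries. The fractions did not overlap in siCtrl cells, and overlapped in siEIF3G cells through siEIF3G polysomal 3 and siEIF3G input 2, both of which stood apart. Taken instead as summed TPM of the hydrolases over that of the pump, the ratio was 0.342, 0.443 and 0.218 in siEIF3G polysomal against 0.223, 0.162 and 0.298 in siEIF3G input libraries. It was 0.407, 0.261 and 0.187 in siCtrl polysomal against 0.0820, 0.201 and 0.255 in siCtrl input libraries. In this form the fractions overlapped in both kinds of cells. The summed TPM of the 5 V0 subunits over that of the 8 V1 subunits was 2.29, 2.35 and 2.21 in siEIF3G polysomal against 1.05, 1.40 and 1.17 in siEIF3G input libraries. In siCtrl cells it was 2.52, 2.50 and 2.03 in polysomal against 1.61, 1.29 and 1.19 in input libraries. In summed TPM, which ATP6V0B and ATP6V1F lead, every polysomal library lay above every input library of the same siRNA and of the other. The mean log2 TPM of V0 minus that of V1, which weights subunits equally, was 2.21, 2.31 and 1.20 in siEIF3G polysomal against 0.65, 2.09 and 0.81 in siEIF3G input libraries. In siCtrl cells it was 2.81, 2.60 and 3.30 in polysomal against 2.25, 1.04 and 0.55 in input libraries. In this form the fractions did not overlap in siCtrl cells, overlapped in siEIF3G cells through siEIF3G polysomal 3 and siEIF3G input 2, and siCtrl input 1 lay above siEIF3G polysomal 1 and 3. Between the siRNAs the forms also differed: in polysomal RNA the V0 minus V1 mean was lower in each siEIF3G than in each siCtrl library, and in input RNA the hydrolase minus pump mean was higher in each siEIF3G library by a narrow margin, whereas the ratios of sums overlapped in both fractions.

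**Figure D2:**
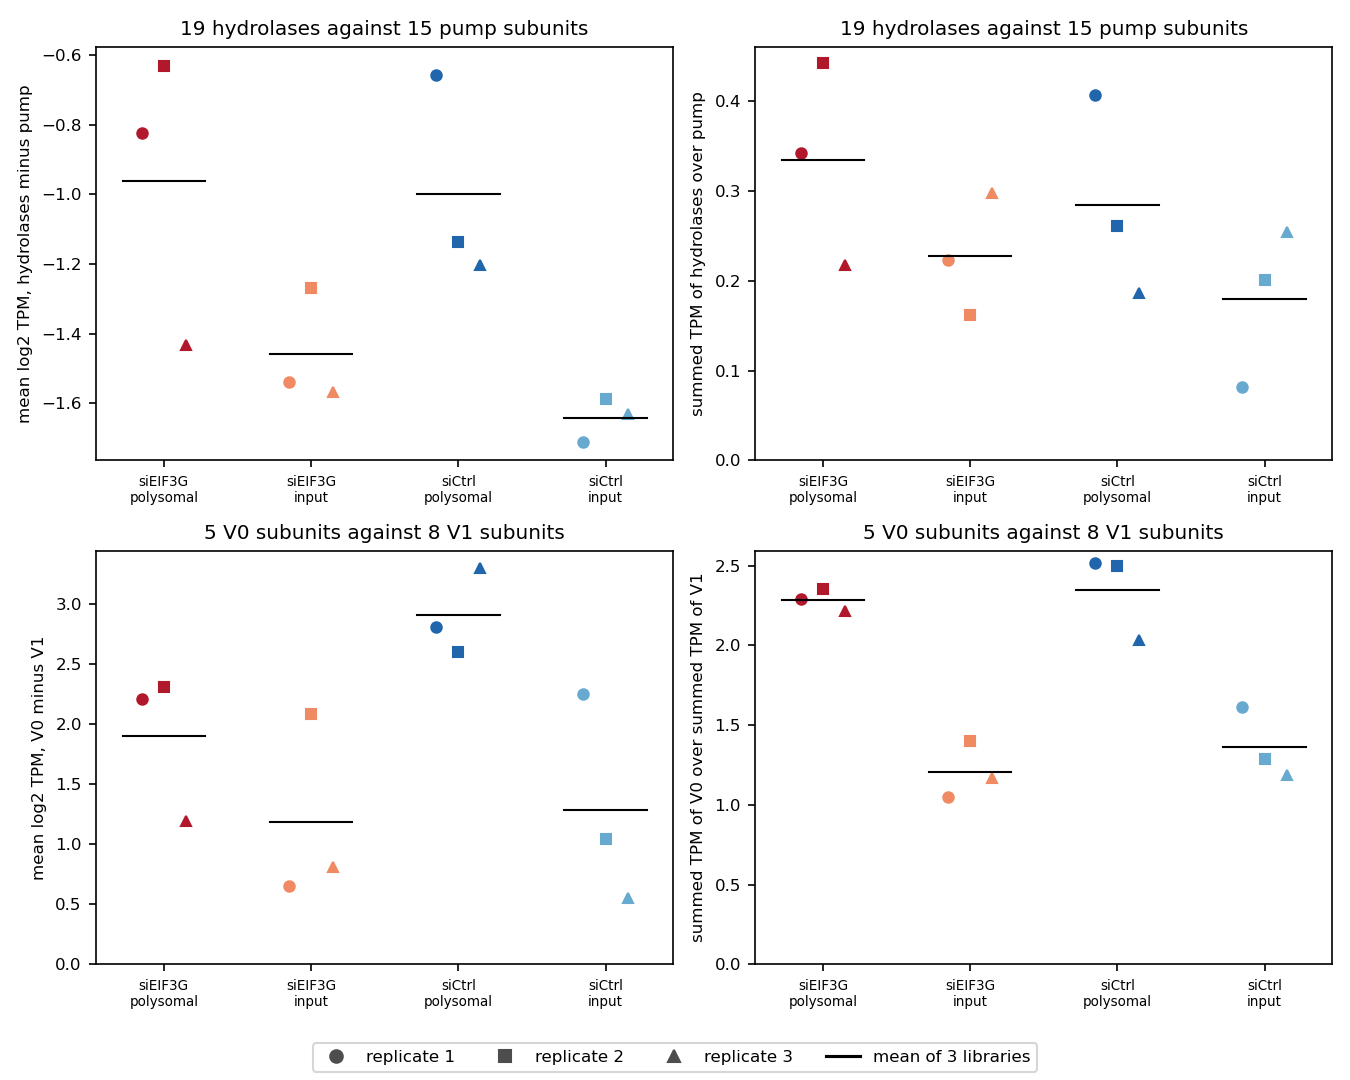
Top, 19 hydrolases against 15 pump subunits, and bottom, 5 V0 against 8 V1 subunits, in each library by group (x axes, 3 libraries each, marker shape is the replicate number and the line the mean). Y axes show the difference of mean log2 TPM (left) and the ratio of summed TPM (right). At bottom right the polysomal libraries lie between 2.03 and 2.52 and the input libraries between 1.05 and 1.61, whereas the fractions overlap in the other panels except in siCtrl cells on the left.

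Members with the core CACGTG in their promoter window had a median log2 difference, polysomal minus input, of 0.69 in siEIF3G cells and 0.83 in siCtrl cells (n = 10 genes), and those with a window but no core had -0.15 in siEIF3G cells and -0.74 in siCtrl cells (n = 19 genes). CD63, ATP6V0D1, CTSD, MCOLN1 and NEU1 hold the core and were higher on polysomes in siCtrl cells. ATP6V1G1, whose stretch is shown above, also holds it and was lower. CTSA (0.68), GAA (0.74), LAMP1 (0.06) and ATP6V0B (-0.21) hold it too and did not pass the test in siCtrl cells. Of the genes with a window but no core, ATP6AP1 was higher there (1.49), and CTSC, NPC1 and ATP6AP2 were lower. Between the siRNAs, siEIF3G minus siCtrl, the order was not the same. In polysomal RNA the median was -0.10 with the core and 0.62 without, and in input RNA -0.02 with and -0.02 without. For the change in polysome loading, described below, it was 0.02 with and 0.60 without. The same split over all tested genes is not given here. These medians are a description of 29 genes with a window and carry no test.

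The siRNA effect was then read in each fraction. In input RNA, which reports the transcript share in the whole lysate, 0 of 42 members passed the threshold (against 0.0189% of all tested genes) and 0 had an unadjusted p under 0.05 by limma. Of the 42, 19 lay above 0, against 43% of all tested genes. Medians of the log2 difference, siEIF3G minus siCtrl, were 0.07 for hydrolases, -0.02 for membrane and transport proteins and -0.09 for pump subunits, beside -0.05 for all tested genes. Without the 3 libraries apart they were -0.15, -0.18 and -0.22 in the same order, beside -0.20 for all tested genes, and 10 of 42 members lay above 0. GAA had 20.6, 23.9 and 18.9 TPM in siEIF3G input against 13.7, 14.5 and 14.7 TPM in siCtrl input libraries, a log2 difference of 0.53 (SE 0.31). SGSH, a heparan sulfate sulfatase, had 15.5, 19.9 and 14.7 TPM in siEIF3G input against 9.62, 10.6 and 11.1 TPM in siCtrl input libraries, a log2 difference of 0.62 (SE 0.38). The groups of both genes did not overlap, as was the case for ATP6AP1, so that 3 of 42 members were apart upward (7.1%, against 1.88% of all tested genes) and 0 downward (against 1.8%). ATP6V0B had 1126, 1766 and 799 TPM in siEIF3G input against 3169, 1490 and 1211 TPM in siCtrl input libraries, a log2 difference of -0.62. ATP6V1F had 1068, 1442 and 677 TPM in siEIF3G input against 2091, 1192 and 898 TPM in siCtrl input libraries, a log2 difference of -0.37. CD63 had 567, 770 and 487 TPM in siEIF3G input against 788, 796 and 716 TPM in siCtrl input libraries, a log2 difference of -0.36. The groups of all 3 genes overlapped.

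In polysomal RNA 0 of 42 members passed the threshold (against 0.0189% of all tested genes), and 5 had an unadjusted p under 0.05 (11.9%, against 6.69% of all tested genes). On the deposited scale most tested genes were higher here, with a median of 0.33 and 72.7% above 0. Of the members, 30 of 42 lay above 0 (22 with size factors, where the median of all genes is -0.03). The members with the smallest p in their role were GAA, LIPA, PSAP, ATP6V0C and ATP6V1H, each with a limma adjusted p of 0.650. LIPA, which frees cholesterol and fatty acids, had 10.3, 17.0 and 11.4 TPM in siEIF3G polysomal against 8.63, 5.01 and 2.11 TPM in siCtrl polysomal libraries, a log2 difference of 1.27 (SE 0.55). GAA had 43.8, 54.3 and 33.9 TPM in siEIF3G polysomal against 32.1, 26.8 and 17.0 TPM in siCtrl polysomal libraries, a log2 difference of 0.79 (SE 0.31). In both genes the groups did not overlap, GAA by a small margin. PSAP, the precursor of the saposins that help degrade sphingolipids, had 424, 700 and 288 TPM in siEIF3G polysomal against 473, 173 and 102 TPM in siCtrl polysomal libraries, which overlapped, with a log2 difference of 1.11 (SE 0.48). ATP6V1H had 21.7, 16.9 and 37.2 TPM in siEIF3G polysomal against 11.3, 7.41 and 3.09 TPM in siCtrl polysomal libraries, without overlap and with a log2 difference of 1.73 (SE 0.59). ATP6V0C, the main proton-carrying ring subunit, had the opposite sign: 276, 256 and 160 TPM in siEIF3G polysomal against 339, 376 and 442 TPM in siCtrl polysomal libraries. Every siEIF3G value lay below every siCtrl value, with a log2 difference of -0.77 (SE 0.25). ATP6V0B had 1358, 1192 and 2006 TPM in siEIF3G polysomal against 1419, 1646 and 1573 TPM in siCtrl polysomal libraries. ATP6V1F had 732, 657 and 785 TPM in siEIF3G polysomal against 759, 830 and 1064 TPM in siCtrl polysomal libraries. The groups of both genes overlapped.

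Across the list, 14 members had siEIF3G polysomal libraries wholly above siCtrl polysomal libraries (33.3%, against 21.6% of all tested genes) and 2, ATP6V0C and NEU1, wholly below (4.8%, against 7.61%). The 14 were ASAH1, CTSC, GAA, LIPA, MANBA, NAGLU and PPT1 among hydrolases, LAMP2, NPC1 and SCARB2 among membrane proteins, and ATP6V1A, ATP6V1G1, ATP6V1H and ATP6AP2 among pump subunits. Medians were 0.55 for hydrolases, 1.00 for membrane and transport proteins and 0.37 for pump subunits. With size factors they were 0.04, 0.49 and -0.09 in the same order, and without the 3 libraries apart 0.58, 0.80 and 0.27, beside 0.20 for all tested genes. V1 had a median of 0.75 (0.42 above all genes) and V0 of -0.11 (-0.45 relative to them), and the 2 parts lay on the same sides of all genes with size factors (0.28 and -0.62), with quantile normalization (0.42 and -0.13) and without the 3 libraries apart (0.16 and -0.24). The difference between V1 and V0 has no test.

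**Figure D3:**
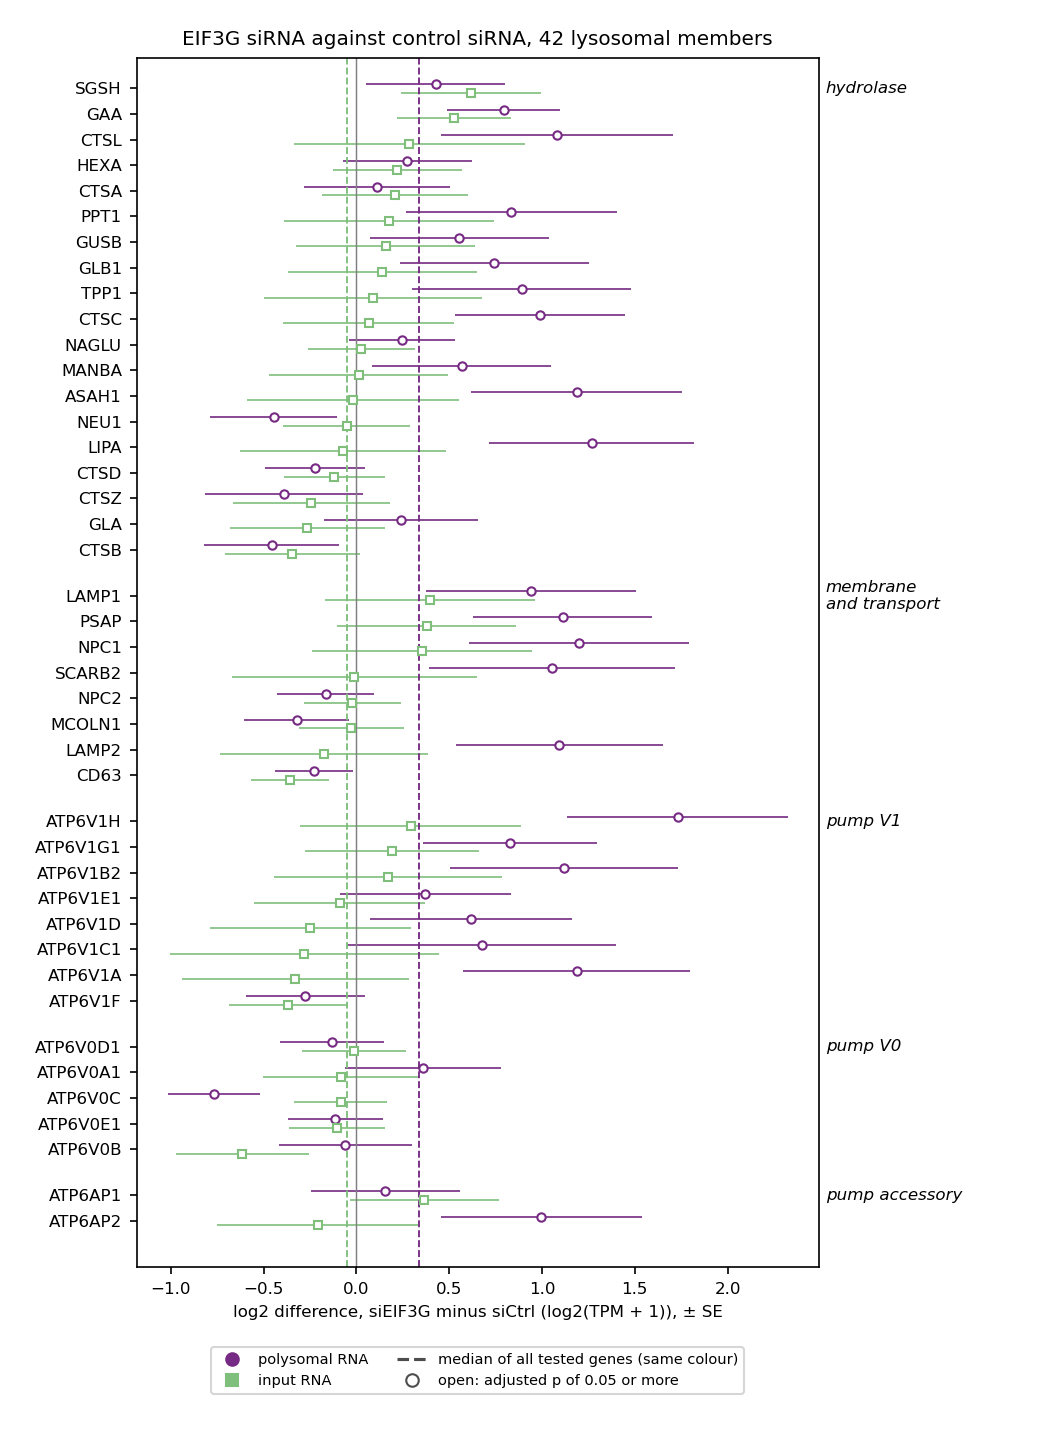
Log2 difference of siEIF3G minus siCtrl (x axis, log2(TPM + 1), bars are ± SE, n = 3 libraries per group) for the 42 members by role (y axis), in polysomal RNA (purple circles, upper) and input RNA (green squares, lower). All points are open, since none passed an adjusted p of 0.05, and dashed lines mark the median of all tested genes, 0.33 in polysomal and -0.05 in input RNA.

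The change in polysome loading, tested as the interaction of siRNA and fraction, was called for 0 of 42 members and for 0% of all tested genes, and 0 members had an unadjusted p under 0.05 (19 of all genes did). Of the members 30 lay above 0, against 73.9% of all tested genes. Medians were 0.39 for hydrolases, 0.56 for pump subunits and 0.38 for all tested genes, and within the pump 0.90 for V1, with 8 of 8 above 0 (6 of 8 with size factors), and -0.01 for V0. Without the 3 libraries apart they were 0.59 for hydrolases, 0.44 for pump subunits and 0.42 for all tested genes, and 0.59 for V1, with 7 of 8 above 0, and 0.26 for V0. The members with the smallest p in their role were LIPA (1.34, SE 0.78), ASAH1 (1.21, SE 0.81), ATP6V1A (1.52, SE 0.86), ATP6V0C (-0.68, SE 0.35) and LAMP2 (1.27, SE 0.79), each with a limma adjusted p of 0.908. ASAH1 shows the spread behind these values, with 7.09, 6.64 and 12.8 TPM in siEIF3G polysomal, 14.6, 4.39 and 14.1 TPM in siEIF3G input, 3.49, 4.13 and 2.14 TPM in siCtrl polysomal and 3.73, 12.7 and 19.4 TPM in siCtrl input libraries. Within the input groups the low value is siEIF3G input 2 and siCtrl input 1. ATP6V1A had 5.30, 7.14 and 9.67 TPM in siEIF3G polysomal and 18.8, 5.48 and 18.2 TPM in siEIF3G input libraries, and LAMP2 had 5.09, 8.37 and 5.17 TPM in siEIF3G polysomal and 14.2, 4.36 and 10.0 TPM in siEIF3G input libraries. Here too siEIF3G input 2 was the low input value. LIPA had 18.0, 9.06 and 16.2 TPM in siEIF3G input against 5.72, 19.2 and 27.1 TPM in siCtrl input libraries, with the same 2 libraries lowest.

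**Figure D4:**
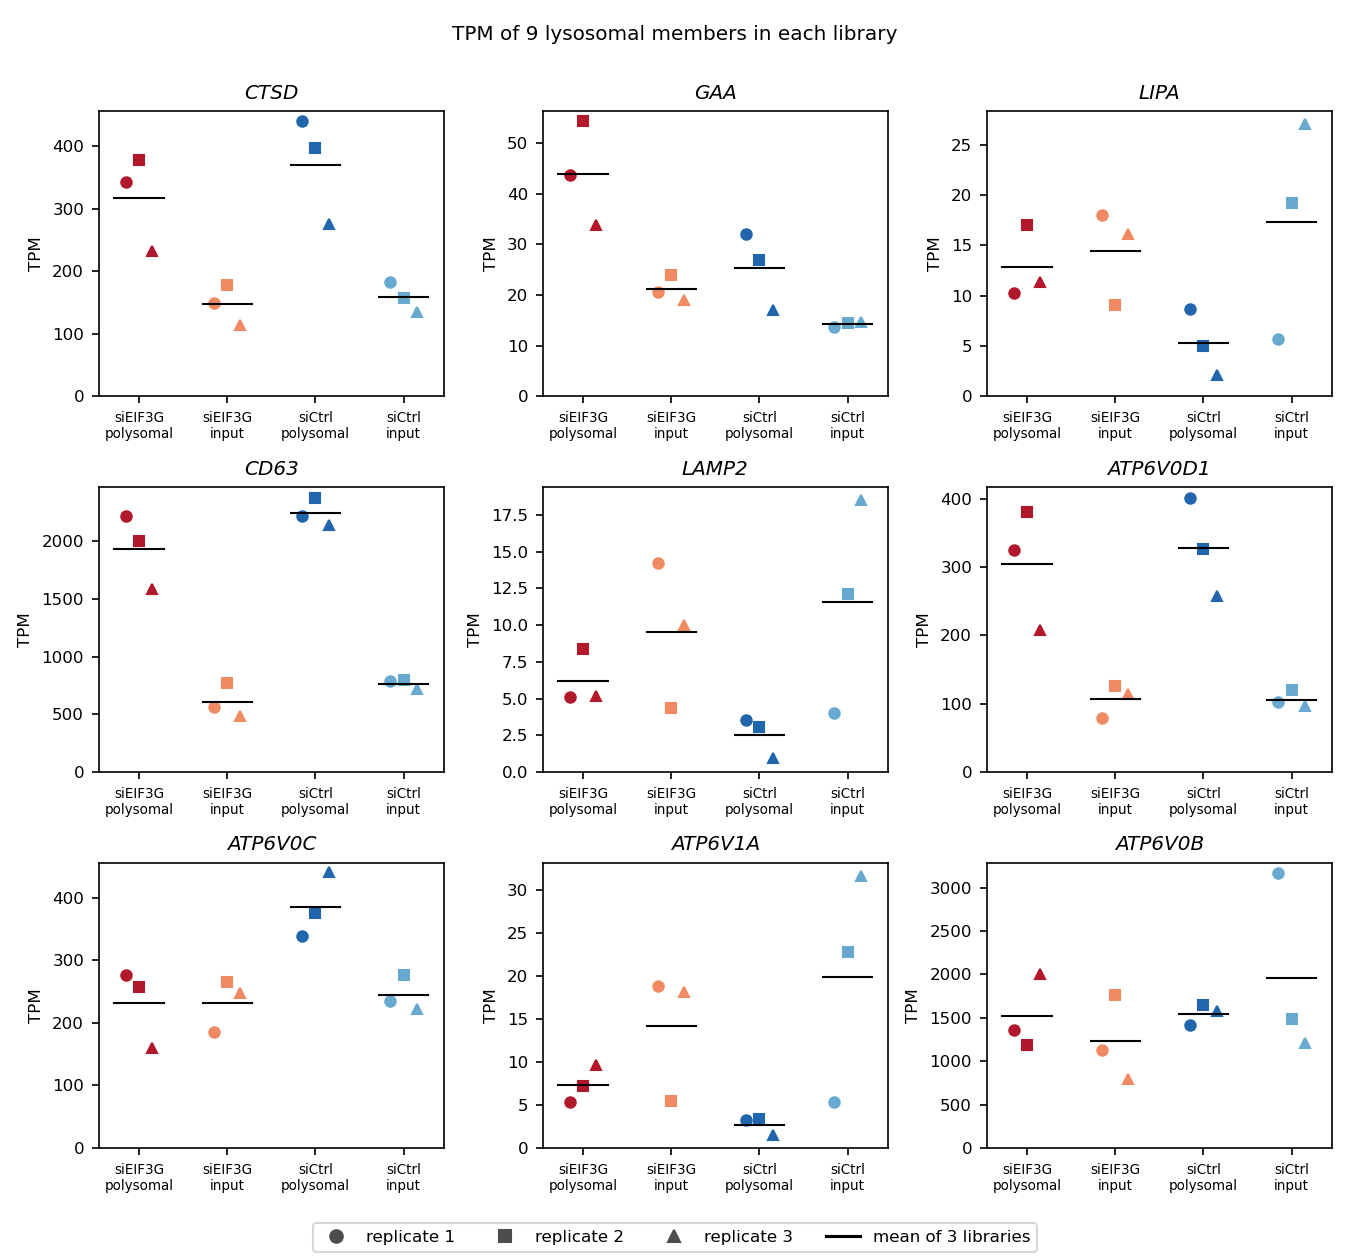
TPM (y axes, from 0) of 9 members in each library by group (x axis, 3 libraries each, marker shape is the replicate number and the line the mean). CD63, ATP6V0D1 and CTSD have every polysomal library above every input library of the same siRNA, with CD63 at 1582 to 2372 TPM on polysomes, and LAMP2, LIPA and ATP6V1A have their low input values in siEIF3G input 2 and siCtrl input 1.

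Other lysosomal genes, taken from further lists, were set beside the members: 34 tested hydrolases, 35 membrane and transport proteins, 14 pump and assembly genes, 16 sorting genes and 10 MiT/TFE factors and regulators. By limma 0 were called in either siRNA comparison, with an unadjusted p under 0.05 for 1 in input and 6 in polysomal RNA of the 109 genes (of all tested genes, 1.36% in input and 6.69% in polysomal RNA). In the siCtrl comparison of polysomal with input RNA, 4 were called higher and 6 lower of the 34 hydrolases, 5 and 6 of the 35 membrane and transport proteins, 0 and 3 of the 14 pump and assembly genes, 2 and 5 of the 16 sorting genes, and 0 and 2 of the 10 regulators, beside 7.98% higher and 28.9% lower of all tested genes. In siEIF3G cells the hydrolases had 2 higher and 1 lower, the membrane and transport proteins 1 and 0, and the remaining lists 0, beside 1.81% and 1.33% of all tested genes. Median log2 differences, polysomal minus input, in siCtrl cells were -0.30 for these 34 hydrolases and -0.58 for the 14 pump and assembly genes, beside -0.96 for all tested genes. In siEIF3G cells they were -0.09 and -0.46, beside -0.49 for all tested genes. SPNS1, a lysosomal phospholipid transporter, had the smallest unadjusted p of these lists in both siRNA comparisons. It had 94.9, 92.4 and 58.4 TPM in siEIF3G polysomal against 198, 226 and 207 TPM in siCtrl polysomal libraries, a log2 difference of -1.38 (SE 0.27, limma adjusted p = 0.579). In input RNA it had 63.0, 73.9 and 46.7 TPM in siEIF3G against 150, 116 and 94.4 TPM in siCtrl libraries, a log2 difference of -0.96 (SE 0.27). Its groups did not overlap in either fraction. ATP6V0A2, another large V0 subunit, had a log2 difference of 1.37 in polysomal RNA, and RNASEK, a small V-ATPase-associated protein, one of -0.67, both with groups that did not overlap and a limma adjusted p of 0.650. Of the factors that bind the core, TFE3 had 18.2 to 40.8 TPM and TFEB 1.09 to 4.74 TPM over the 12 libraries, while MITF was at most 0.46 and TFEC at most 0.02 TPM.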

How the data were processed

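TPM per gene were computed and deposited by the authors. RSEM 1.3.1 and the build GRCh38.p13 are named, per the submitters' processing notes. Which aligner, annotation and strand setting were used is not given in the sources used here. All 12 libraries sum to 1000000 TPM within 0.54, so depth and counting error are unknown. Per the labels' protocols, mRNA was enriched with oligo(dT) beads. Values were taken as log2(TPM + 1) for the 10605 genes whose mean TPM was 1 or more. Limma 3.58.1 (R 4.3.3) fitted 4 group means with 8 residual degrees of freedom and a mean-variance trend. In each of 5 comparisons the Benjamini-Hochberg adjustment ran over all tested genes, with a threshold of 0.05. The fit was tried on simulated data for the siRNA effect in input RNA only. The simulated noise was independent between genes, so it did not cover the variation that genes share in these libraries. The log scale understates changes of low genes. TPM are shares, so a change of all mRNAs alike is not seen. The 42 members, their roles and the other lists were chosen with earlier results of these data known. Values in every library are given for the 2 most abundant members of each role, for those with the smallest p per role (2 hydrolases, 2 pump subunits and 1 membrane or transport protein) and for those called. Other members are given by range, by count or by log2 difference without its SE. ATP6V0A1, named for its low level, was chosen after its values were seen. Promoter windows came from RefSeq (GRCh38.p14), of which only the windows' own coordinates are given, and were searched for exact letters with Python 3.11.15. Alternatives were pseudocounts of 0.1 and 5, no filter, a minimum mean of 5 TPM, size factors, quantile normalization, no trend, a fit of only the groups compared, a block for the replicate number, and leaving out libraries.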

Additional observations from a re-analysis of the deposited data

How the results depend on the processing

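No call of a named gene reversed. Members called in siCtrl cells, polysomal against input, numbered 7 with a pseudocount of 5, 5 without a filter, 5 with only the groups compared and 30 without the 3 libraries apart, against 15 (all genes 1408, 1249, 610 and 7960, against 3912). In siEIF3G cells they numbered 0 with size factors, 1 with only the groups compared and 27 without the 3 libraries, against 3 (all genes 47, 68 and 7541, and 149 without the trend, against 333). All genes called in the siRNA comparisons numbered 1 in input and in polysomal RNA with size factors, without the trend and with only the groups compared, 1 in polysomal RNA with quantile normalization, and 5 in input and 4 in polysomal RNA without the 3 libraries, against 2 each. With size factors, the hydrolase median was 0.0375 for the siRNA effect in polysomal RNA, -0.16 for loading, 1.11 for polysomal against input in siEIF3G cells and 1.18 in siCtrl cells, and the pump median -0.0177 for loading and 0.23 in siCtrl cells. The hydrolase median in siCtrl cells was 0.55 with quantile normalization and -0.29 without the 3 libraries.

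Same-numbered libraries deviated together with correlations from -0.69 to 0.71 across genes, and from -0.53 to 0.63 between fractions of the same siRNA. The main fit did not take the numbers to pair samples. Input was kept from the lysate, so the fractions may be paired by number, and these correlations cannot settle that. With the replicate number as a block, 9 members (2121 genes) were called in siCtrl cells, and with a replicate block within siRNA 1 member (75 genes) in siEIF3G cells. The block within siRNA called 4430 of all genes in siCtrl cells, against 3912 in the main fit.

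Leaving out 1 library at a time gave 2 to 25 members (130 to 7185 genes) in siCtrl cells, 1 to 8 members (44 to 788 genes) in siEIF3G cells, 1 to 2 genes and 0 members in either siRNA comparison, and 0 genes and 0 members for loading. The hydrolase median then ranged from -0.43 to 0.46 in siCtrl cells, 0.28 to 0.69 in siEIF3G cells, 0.15 to 0.80 for loading, -0.31 to 0.35 for the siRNA in input and 0.25 to 0.71 in polysomal RNA. The pump median ranged from -1.24 to -0.59, -0.53 to -0.10, 0.28 to 0.96, -0.34 to 0.20 and 0.23 to 0.61 in the same order, and the hydrolase minus pump median from 0.52 to 1.09, 0.49 to 1.21, -0.52 to 0.05, 0.01 to 0.24 and -0.26 to 0.30. The cause of these shifts was not tested. Of the values of single named genes under the alternatives, 618 stayed on their side of the threshold, 167 lost the call, 4 gained one and 0 reversed. The 618 include genes not called in the main fit, which had no call to lose, so they overstate how stable the calls were. In siCtrl cells CTSC lost its call in 17 of 23 alternatives and MANBA in 17 of 22, while CD63 and ATP6V0D1 kept theirs in all 23. The depth is unknown, and 3 libraries per group limit what the tests can show.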
